A study of Mus musculus with 12 samples.

Results

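The 10 genes described here encode the cyclin B proteins, the kinase CDK1 that they activate, and the enzymes that switch CDK1 off and on. They were taken by name from a table of 24259 gene symbols, and all 10 were found there: *Ccnb1*, *Ccnb2* and *Ccnb3* (cyclins B1, B2 and B3), *Cdk1*, the inhibitory kinases *Wee1*, *Wee2* and *Pkmyt1*, and the activating phosphatases *Cdc25a*, *Cdc25b* and *Cdc25c*. The rule uses gene names alone. The study asked how translation in mouse oocytes changes when LSM14B, an RNA-binding protein of the oocyte, is missing. Oocytes at the germinal vesicle (GV) stage came from 3-week-old female mice, 46 h after priming with 5 IU of PMSG, a gonadotropin that stimulates follicle growth. WT mice were compared with mice homozygous for *Lsm14b* tm1a(KOMP)Mbp (*Lsm14b*-KO), a reporter-tagged insertion. Every cell of these animals carries it, the surrounding follicle cells included, though the study detected LSM14B protein in oocytes only. Lysates of about 1500 oocytes were spread on a sucrose gradient in the presence of cycloheximide, which holds ribosomes on mRNA. Fractions 1 to 10 were joined as the RNP pool, which holds free and lightly loaded mRNA, and fractions 11 to 28 as the polysome pool, which holds mRNA on several ribosomes. Each pool was sequenced in 3 WT and 3 KO libraries, which gave 12 libraries in 4 groups.

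Cyclin B and CDK1 together form maturation-promoting factor, the kinase that drives an oocyte out of prophase arrest, through GV breakdown and into meiotic metaphase. In the arrested oocyte, WEE2 (the oocyte form of WEE1) and the membrane kinase PKMYT1 place inhibitory phosphates on CDK1, and CDC25B is the phosphatase chiefly known for removing them when meiosis resumes. A growing oocyte stores cyclin B mRNA in translationally silent particles and later recruits it to ribosomes, in part through cytoplasmic polyadenylation elements (CPE) in the 3′UTR that lie near the polyadenylation signal.

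The 12 libraries held an estimated 4.82 to 7.84 M fragments (M, mega) each, read from the steps between the lowest values. *Lsm14b* had 11.3, 15.3 and 13.2 FPKM (fragments divided by transcript length and by library depth) in WT polysomes and 0.260, 0 and 0.0876 FPKM in KO polysomes, and in the RNP pool 34.6, 29.3 and 27.4 FPKM in WT and 0.893, 0.0627 and 0 FPKM in KO. All 9 oocyte markers looked up were present in every group, led by *Gdf9*. The summed FPKM of 15 granulosa and cumulus cell markers was 27.9 to 76.3 in WT polysomes and 84.2 to 113 in KO polysomes, and 31.3 to 37.3 in the WT and 43.2 to 70.6 in the KO RNP pool. Of the 15, 4 averaged at least 1 FPKM in WT polysomes, 8 in KO polysomes, 3 in the WT RNP pool and 5 in the KO RNP pool. The list was led by *Cyp19a1* and *Inha*. *Amhr2* and *Foxl2* were listed at 0 in every polysome library and in every WT RNP library, but not in every KO RNP library. Red blood cell markers were listed at 0 in all libraries. In 1 KO polysome library (replicate 2), 10 genes took 34.7% of the summed FPKM, against 11.6 to 14.7% in the other libraries.

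The 3′UTRs of the 10 genes differ in their matches to the CPE sequence, which were found by letters alone and not tested for function. The stretches below show which of the 5 genes called between the genotypes carry or lack such a match. *Wee2* is shown beside them as an abundant member whose CPEs lie near the end of the mRNA. All stretches were read from GENCODE M21 transcripts on GRCm38, the build of the table, and run 5′ to 3′ along the mRNA. The CPE (TTTTAT or TTTTAAT) and the polyadenylation signal (AATAAA or ATTAAA) are in capitals. *Ccnb1* holds 4 CPEs in a 3′UTR of 1028 bases, all upstream of the last 100 bases, of which 3 are shown. *Ccnb2* has 1 in 227 bases, *Wee2* has 2, 1 on either side of its polyadenylation signal, and *Cdc25a* has 6 in 1676 bases, of which the last is shown. Neither *Wee1* nor *Cdc25b* has one, and their polyadenylation signals are shown instead. The share of all genes with a CPE anywhere in the 3′UTR was not computed. Carrying or lacking one is therefore not read as a trait of the called genes.
Ccnb1, chr13:100779247-100779276, minus strand: ccaagtatctttTTTTATgtaattatttat
Ccnb1, chr13:100779069-100779098, minus strand: tatatgggttcaTTTTATcaacagtattcc
Ccnb1, chr13:100778776-100778805, minus strand: tctcatttgctgTTTTAATttatacatctg
Ccnb2, chr9:70407860-70407889, minus strand: atcctgtatgtaTTTTATtctagtttacat
Wee2, chr6:40466756-40466785, plus strand: ctttttaacataTTTTAATccagatcattg
Wee2, chr6:40466784-40466813, plus strand: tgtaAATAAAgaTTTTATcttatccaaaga
Cdc25a, chr9:109893349-109893378, plus strand: gagtttatcatgTTTTAATttgagggtcag
Wee1, chr7:110143247-110143276, plus strand: attgtctggtgtATTAAAagtcattccgtg
Cdc25b, chr2:131198463-131198492, plus strand: gggccttggttcAATAAAgcactgagcaag

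The second *Ccnb1* stretch shares its CPE with a window that the study lists for *Ccnb1* in its LACE-Seq supplement, a method that maps where an RNA-binding protein (here LSM14B) sits on an mRNA. Other windows are listed for *Ccnb1* too, and those that could be placed on its transcript did not touch a CPE. The copy of that supplement read here was shortened, so a gene without a window here may still be bound. The window shown starts 1 base inside the CPE and is printed in lower case throughout.
Ccnb1 LACE-Seq window: tttatcaacagtattcctat

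Within the last 100 bases of the 3′UTR, where a CPE lies close to the polyadenylation signal, 2 of the 10 genes (*Ccnb3* and *Wee2*) held a CPE on the mRNA strand, beside 18.3% of 18539 annotated genes with a 3′UTR of at least 100 bases. All 10 held AATAAA or ATTAAA there, beside 79.5% of those genes. Further upstream, a CPE also began 29 and 49 bases before AATAAA or ATTAAA in *Ccnb1*, 64 in *Ccnb2* and 36 in *Cdk1*. Whether these upstream signals are used was not tested, and the share of all genes with such a spacing was not computed. The hexamer CCTCTC, which has been linked to LSM14B binding, was found in the 3′UTR of 6 of the 10 and of 38.6% of all genes, and was not found in *Ccnb1*, *Ccnb2*, *Wee2* or *Cdc25c*. Its absence does not mark an unbound mRNA, since the study lists LACE-Seq windows for *Ccnb1* and names *Wee2* among the mRNAs bound by LSM14B. The *Cdk1* transcript used for these counts has a 3′UTR of 3352 bases, and the locus given for *Cdk1* in the table starts at 69336633 on chromosome 10, inside that 3′UTR, so the second of its 2 CPEs lies outside the stretch the authors quantified.

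*Ccnb1* and *Wee2* were the most abundant of the 10 in each of the 4 groups. Per length, *Ccnb1* averaged 360.5 ± 33.8 FPKM in WT polysomes, 242.8 ± 62.7 in KO polysomes, 537.7 ± 44.2 in the WT RNP pool and 360.0 ± 4.5 in the KO RNP pool (mean ± SD, n = 3 each), which put it between percentiles 97.3 and 99.3 of the genes above 0. *Wee2* averaged 231.7 ± 10.7, 210.9 ± 13.5, 311.6 ± 8.5 and 290.3 ± 16.2 FPKM in the same order. The ranges of these 2 genes overlapped only in KO polysomes, where 1 *Ccnb1* library fell to 172.5 FPKM. In WT polysomes *Cdc25b* (65.5 FPKM), *Ccnb2* (55.8) and *Pkmyt1* (46.6) followed, with overlapping ranges between neighbours, then *Cdc25a* (26.2), and then *Cdk1* (17.6) and *Ccnb3* (16.6), which overlapped each other. *Cdc25c* lay at a mean of 1.77 to 3.87 FPKM in every group, on an estimated 9 to 54 fragments per library. *Wee1* was the least abundant in WT polysomes and in the KO RNP pool stood above *Cdk1*, *Ccnb3* and *Cdc25c*.

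**Figure D1:**
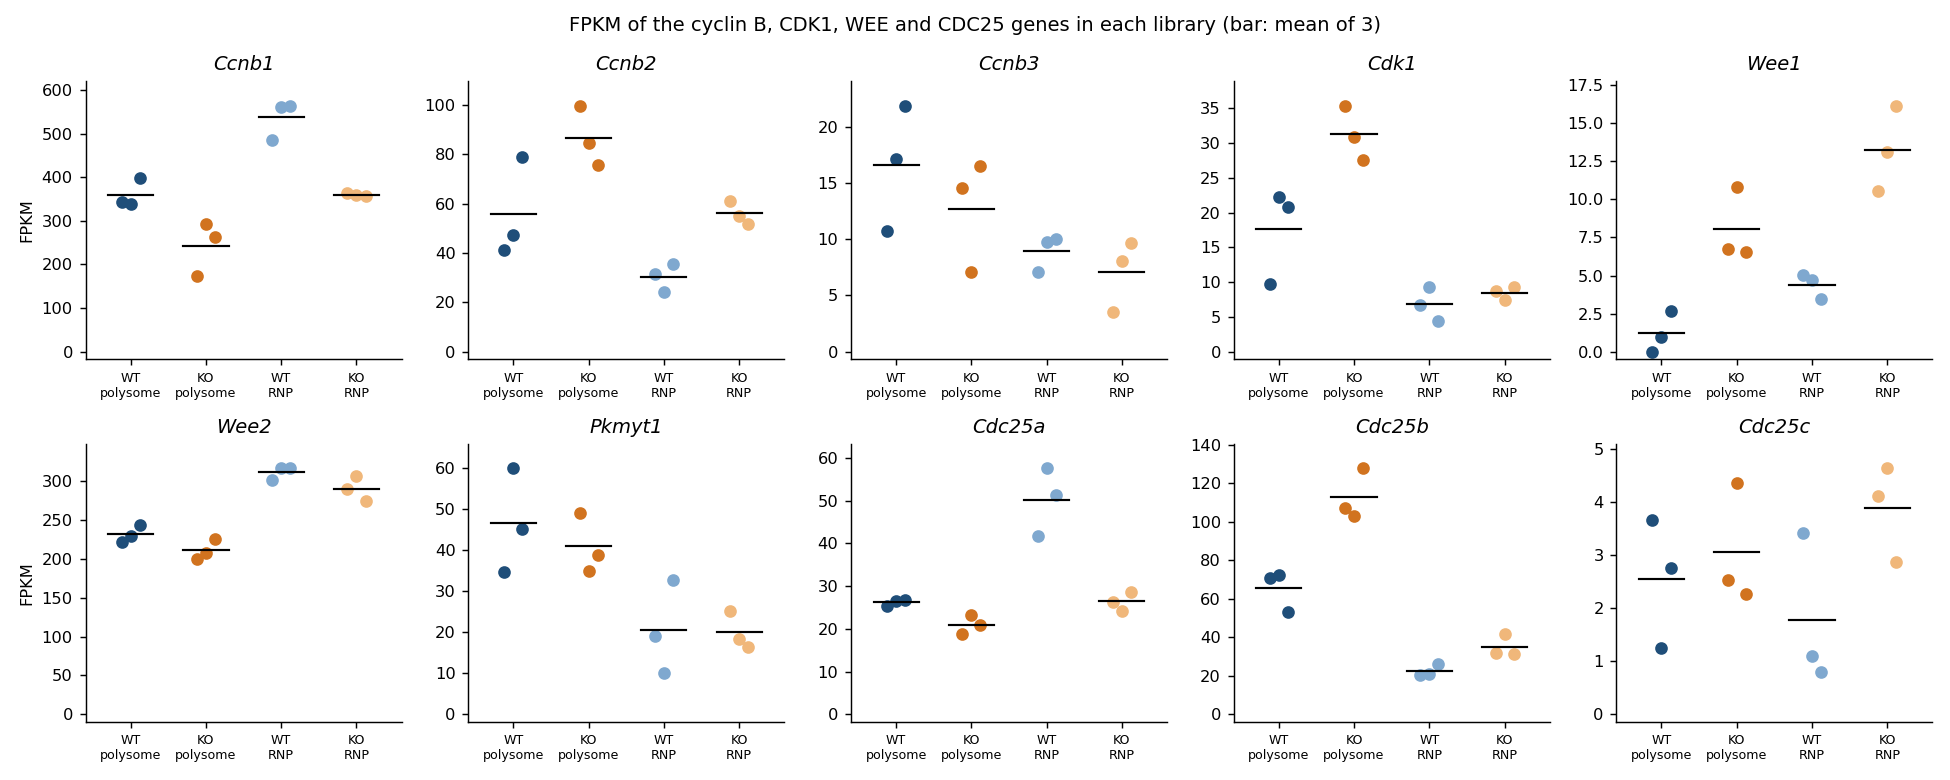
FPKM of the 10 genes in each of the 12 libraries, 1 panel per gene with its own axis from 0, by genotype and pool (dots, libraries; bars, means of 3). The *Ccnb1* libraries of the KO lie below those of WT in both pools, while the *Cdc25b* and *Wee1* libraries of the KO lie above.

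*Ccnb1* and *Ccnb2* moved in opposite directions in the KO RNP pool. *Ccnb1*, the most abundant of them and the cyclin most closely tied to CDK1 activation in oocytes, had 486.7, 562.1 and 564.4 FPKM in the 3 WT RNP libraries and 365.1, 358.6 and 356.4 FPKM in the 3 KO RNP libraries. Every KO library lay below every WT library. The difference in log2(FPKM + 1) was -0.57 (SE 0.083, adjusted p = 0.00171 from limma, adjusted over all genes by Benjamini-Hochberg), and the KO mean was 1.49-fold lower. The call was lost without the intensity trend (adjusted p = 0.0607 from limma). Since these are bulk pools and FPKM is scaled to library depth, fewer transcripts per oocyte and a smaller share of the pool's mRNA cannot be told apart.

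In polysomes *Ccnb1* had 344.2, 337.9 and 399.3 FPKM in WT and 172.5, 293.1 and 262.6 in the KO. The groups did not overlap here either, but the KO libraries were spread more widely. The log2 difference was -0.60 (SE 0.19), close to that of the RNP pool, and did not pass the threshold (adjusted p = 0.0864 from limma). It passed when the spread was estimated from all 12 libraries (adjusted p = 0.0195 from limma) and after quantile normalization (adjusted p = 0.0488 from limma). It did not pass under the other alternatives (adjusted p up to 0.247 from limma, without the intensity trend), and without KO replicate 1, the lowest library, the log2 difference was -0.37 (adjusted p = 0.159 from limma).

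*Ccnb2*, which encodes a cyclin B that can stand in for cyclin B1 in the meiotic divisions, rose in the RNP pool. Its FPKM was 31.5, 24.3 and 35.6 in WT and 61.2, 55.2 and 51.8 in the KO, with every KO library above every WT library, a log2 difference of 0.87 (SE 0.18, adjusted p = 0.00903 from limma) and a 1.84-fold higher mean. In polysomes *Ccnb2* had 41.2, 47.3 and 78.9 FPKM in WT and 99.7, 84.7 and 75.7 in the KO. The WT library of replicate 3 stood apart from the other WT libraries and overlapped the KO. The log2 difference was 0.68 (SE 0.25, adjusted p = 0.133 from limma), and without that WT library it was 0.95 (adjusted p = 0.0298 from limma). With any other library left out it did not pass, and it was smallest, at 0.49, without WT replicate 1 (adjusted p = 0.266 from limma). GENCODE also holds a processed pseudogene of *Ccnb1* and one of *Ccnb2*, and reads shared with these could not be separated.

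*Ccnb3*, a cyclin needed for the first meiotic division in female mice, had 10.7 to 21.9 FPKM in WT and 7.11 to 16.5 FPKM in KO polysomes, and 7.10 to 10.0 and 3.50 to 9.70 FPKM in the RNP pools. The groups overlapped in both pools, and its log2 differences of -0.38 (95% interval -1.31 to 0.55) and -0.38 (-1.21 to 0.45) did not pass. *Cdk1*, the catalytic subunit, had 9.76, 22.2 and 20.8 FPKM in WT and 35.4, 30.9 and 27.6 FPKM in KO polysomes. All 3 KO libraries were above the WT libraries, of which replicate 1 was lowest. The log2 difference of 0.87 (SE 0.34) did not pass the threshold (adjusted p = 0.141 from limma), and without WT replicate 1 it was 0.51 (adjusted p = 0.242 from limma). RNP-pool values of *Cdk1* were 4.37 to 9.26 FPKM in WT and 7.47 to 9.25 in the KO, with a log2 difference of 0.33 (95% interval -0.38 to 1.03).

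Among the inhibitory kinases, *Wee1*, the form used by dividing somatic cells, was higher in the KO in both pools. In the RNP pool it had 5.05, 4.70 and 3.46 FPKM in WT and 10.5, 13.1 and 16.2 FPKM in the KO, a log2 difference of 1.40 (SE 0.29, adjusted p = 0.00919 from limma) and a 3.02-fold higher mean. This call was lost in the fit on all 12 libraries (adjusted p = 0.0502 from limma). In polysomes it was listed at 0, 0.957 and 2.65 FPKM in WT and at 6.75, 10.8 and 6.57 FPKM in the KO. The groups stood apart in both pools.

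The *Wee1* log2 difference in polysomes was 2.20 (SE 0.56, adjusted p = 0.0422 from limma), and it depends on the low WT values. It was 1.08 with a pseudocount of 5 and 3.58 with one of 0.1, and the last did not pass (adjusted p = 0.111 from limma). Nor did it pass with no filter on low values, a filter at 5 FPKM or no intensity trend (adjusted p = 0.112, 0.0511 and 0.0591 from limma). Without KO replicate 1, 2 or 3 the adjusted p from limma was 0.101, 0.153 and 0.108, and without WT replicate 1 or 2 it was 0.0783 and 0.0716. In WT replicate 1, 44 genes were listed at 0 that had at least 5 FPKM in both other WT polysome libraries. Such genes numbered 66 in WT replicate 2 and 65 in WT replicate 3. Counted in the same way, they were fewer in KO polysomes, at 14, 16 and 13 in replicates 1, 2 and 3. In the RNP pool they numbered 5, 27 and 35 in WT and 1, 0 and 4 in the KO. *Wee1*, at 0.957 and 2.65 FPKM in WT replicates 2 and 3, was not among the 44. The cause of its listed 0 was not tested. In the polysome libraries the granulosa and cumulus markers also had a higher sum in the KO (84.2 to 113 FPKM against 27.9 to 76.3), and 4 of the 7 that could be tested were called higher. Of 4 tested in the RNP pool 1 was, and the part of these cells in the *Wee1* result was not tested.

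*Wee2*, the oocyte-specific WEE kinase that keeps CDK1 inactive during prophase arrest, had 221.9, 230.0 and 243.2 FPKM in WT and 199.6, 207.4 and 225.8 FPKM in KO polysomes. The groups overlapped. The log2 difference of -0.14 had a 95% interval of -0.40 to 0.13, and in the RNP pool (301.8, 316.6 and 316.5 FPKM in WT against 290.1, 306.5 and 274.2 in the KO) it was -0.10 with an interval of -0.29 to 0.08. In polysomes this was the narrowest interval of the 10 genes. *Pkmyt1*, the membrane-bound kinase of the family, had 34.7 to 60.0 FPKM in WT and 34.9 to 49.1 in KO polysomes, and 10.0 to 32.8 and 16.4 to 25.2 FPKM in the RNP pools. Its log2 differences were -0.16 (95% interval -0.74 to 0.41) and 0.08 (-0.77 to 0.93), with overlapping groups in both pools. The gene overlaps *Paqr4*, and both carry the same locus in the table.

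Among the CDC25 phosphatases, *Cdc25b* and *Cdc25a* differed between the genotypes in opposite directions. *Cdc25b*, the phosphatase needed for meiotic resumption in mouse oocytes, had 70.8, 72.5 and 53.0 FPKM in WT and 107.2, 103.1 and 127.8 FPKM in KO polysomes. All KO libraries lay above all WT libraries, and the KO mean was 1.72-fold higher. The log2 difference was 0.78 (SE 0.18, adjusted p = 0.0308 from limma). Without KO replicate 1, 2 or 3 the adjusted p from limma was 0.0782, 0.0816 and 0.127, and without WT replicate 3 it was 0.0629, with a log2 difference of 0.64 to 0.84 in these sets. The call was also lost with no filter on low values (adjusted p = 0.0572 from limma) and with no intensity trend (adjusted p = 0.116 from limma).

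In the RNP pool *Cdc25b* had 20.4, 21.1 and 26.0 FPKM in WT and 31.8, 41.9 and 31.3 FPKM in the KO. Here too the groups did not overlap. The log2 difference of 0.61 (SE 0.19) lay just above the threshold (adjusted p = 0.0533 from limma), and passed without WT replicate 3, with a filter at 5 FPKM, after quantile normalization, after rescaling to a common median and in the fit on all 12 libraries (adjusted p from 0.0343 to 0.0427 from limma). In the table *Cdc25b* carries a locus of 477.4 kb that 13 gene symbols share, and its 3′ end overlaps *Spef1* on the other strand by 334 bases. Whether the reads kept their strand is not given in the sources used here.

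*Cdc25a*, which encodes a phosphatase best known from the start of S phase and also active in the meiotic divisions, fell in the RNP pool. It had 41.8, 57.6 and 51.2 FPKM in WT and 26.4, 24.2 and 28.7 FPKM in the KO, with no overlap. The log2 difference was -0.89 (SE 0.17, adjusted p = 0.00748 from limma) and the mean was 1.90-fold lower. In polysomes it had 25.3, 26.5 and 26.9 FPKM in WT and 18.8, 23.2 and 20.8 FPKM in the KO. The KO libraries again lay below WT, with a log2 difference of -0.32 (SE 0.23, adjusted p = 0.424 from limma). *Cdc25c* had 1.26 to 3.66 FPKM in WT and 2.26 to 4.36 in KO polysomes, and 0.795 to 3.41 and 2.87 to 4.63 FPKM in the RNP pools. Its log2 differences of 0.22 (95% interval -0.88 to 1.31) and 0.91 (-0.06 to 1.89) were too imprecise to show a change.

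**Figure D2:**
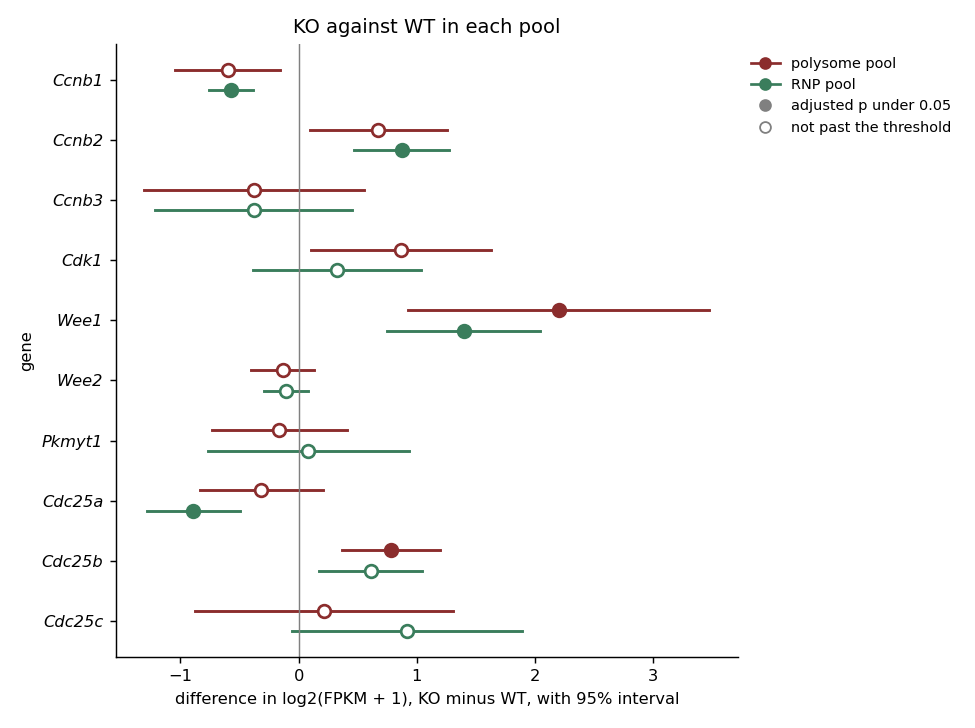
Difference in log2(FPKM + 1) between KO and WT for each of the 10 genes in the polysome pool and the RNP pool (points, limma estimates; lines, 95% intervals; filled points, adjusted p under 0.05). *Ccnb1* lies at -0.60 and -0.57 and *Cdc25b* at 0.78 and 0.61 in the 2 pools, while both *Wee2* intervals are narrow and include 0.

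Counted over the 10 genes, 2 passed the test in polysomes (*Wee1* and *Cdc25b*, both higher in the KO), where 10.4% of 9536 genes tested passed, 5.64% higher and 4.73% lower. In the RNP pool 4 passed, 2 higher (*Ccnb2*, *Wee1*) and 2 lower (*Ccnb1*, *Cdc25a*), where 20.7% of 9931 genes passed, 10.5% higher and 10.2% lower. KO and WT libraries did not overlap for 5 of the 10 in polysomes (*Cdk1*, *Wee1* and *Cdc25b* above, *Ccnb1* and *Cdc25a* below), beside 31.7% of all genes, 18.2% above and 13.4% below. They did not overlap for 5 in the RNP pool (*Ccnb2*, *Wee1* and *Cdc25b* above, *Ccnb1* and *Cdc25a* below), beside 39.2%, of which 20.7% above and 18.4% below. For any 1 of these genes the exact two-sided permutation test gave p = 0.1, the lowest that groups of 3 can reach. The median log2 difference of the 10 was 0.04 in polysomes and 0.20 in the RNP pool, beside 0.10 and 0.05 over all genes tested. The labels do not say whether the 3 libraries of a group came from separate lysates, so the p-values measure only the spread between these libraries.

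The make-up of the cyclin B and CDC25 families differed between the genotypes in both pools, here given as a description. *Ccnb1* made up 83.6 ± 3.5% of the summed cyclin B FPKM in WT polysomes and 70.1 ± 8.7% in KO polysomes (mean ± SD, n = 3). The *Ccnb2* share was 12.6 ± 2.8% and 26.0 ± 7.6%, and the lowest KO library (21.3%) lay above the highest WT library (15.8%). Among RNP libraries *Ccnb1* made up 93.2 ± 0.98% in WT and 85.1 ± 0.18% in the KO, and *Ccnb2* 5.30 ± 1.1% and 13.2 ± 0.94%. The summed cyclin B FPKM was 396.1 to 500.1 in WT and 286.8 to 385.0 in KO polysomes, and 525.3 to 610.0 and 417.8 to 429.8 in the RNP pools. The sums did not overlap in either pool.

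In the CDC25 family, *Cdc25b* made up 69.1 ± 4.4% of the FPKM in WT polysomes and 82.3 ± 3.0% in KO polysomes, and *Cdc25a* 28.1 ± 3.8% and 15.4 ± 2.1%. The order of these phosphatases in the RNP pool differed between the genotypes. *Cdc25a* led in WT with 67.2 ± 4.5% against 30.3 ± 3.5% for *Cdc25b*, and *Cdc25b* led in the KO with 53.4 ± 5.2% against 40.7 ± 5.9%. *Cdc25b* per *Cdc25a* ran from 0.366 to 0.508 in the WT and from 1.09 to 1.73 in the KO RNP libraries. Among the WEE kinases *Wee2* made up 83.0 ± 3.7% and 81.1 ± 2.7% in WT and KO polysomes and 92.6 ± 2.9% and 89.7 ± 0.86% in the RNP pools. The *Wee1* share, 0 to 0.909% in WT polysomes, was 2.42 to 4.27% in KO polysomes. It was 0.979 to 1.55% in the WT and 3.24 to 5.27% in the KO RNP pool.

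**Figure D3:**
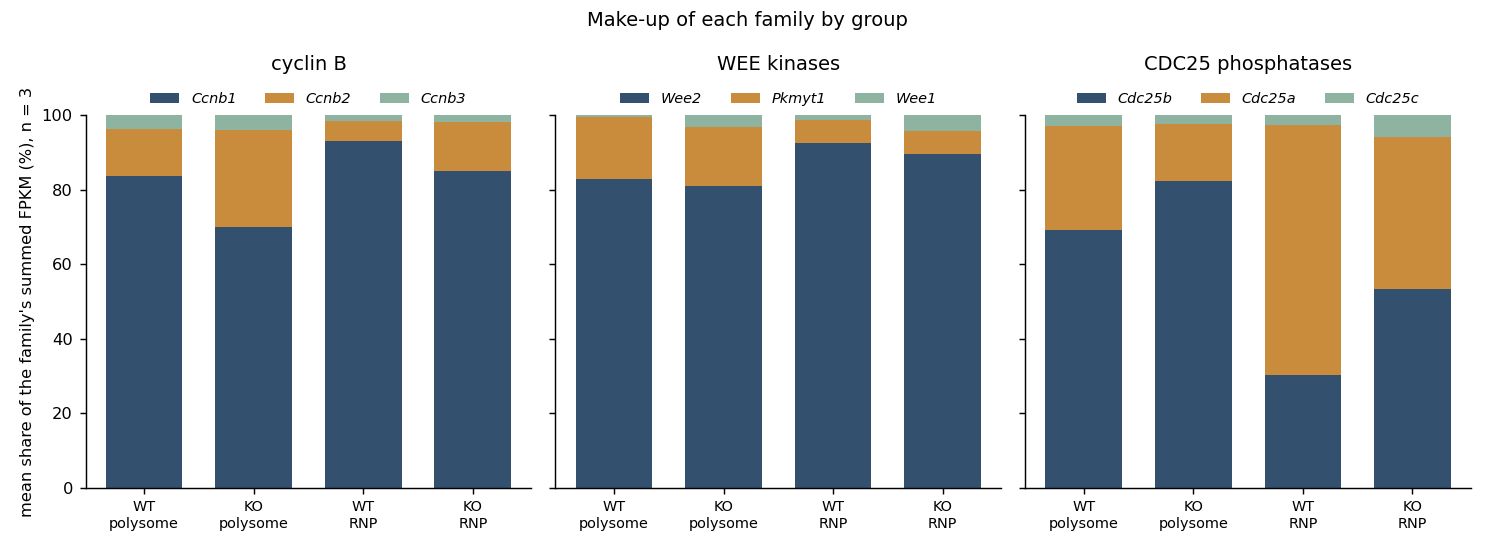
Mean share (%) of each gene in the summed FPKM of its family, by genotype and pool (stacked bars from 0 to 100%, n = 3 libraries per bar). In the KO the *Ccnb2* part of cyclin B is 26.0% in polysomes and 13.2% in the RNP pool, against 12.6% and 5.30% in WT, and *Cdc25b* replaces *Cdc25a* as the larger part of the CDC25 family in the RNP pool.

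Across the gradient, the abundant *Ccnb1* and *Wee2* lay toward the RNP pool and *Cdc25b* toward polysomes, in either genotype. FPKM is scaled to library depth, so these differences say where a gene's share is larger and not what part of its transcripts is on polysomes. In WT, *Cdc25b* had 53.0 to 72.5 FPKM in polysomes and 20.4 to 26.0 in the RNP pool, a log2 difference of 1.49 (SE 0.22, adjusted p = 0.00331 from limma). *Ccnb1* was lower in WT polysomes (337.9 to 399.3 FPKM) than in the RNP pool (486.7 to 564.4), with a log2 difference of -0.58 (SE 0.11, adjusted p = 0.0120 from limma). *Cdc25a* and *Wee2* were lower in polysomes as well, with log2 differences of -0.90 (SE 0.21) and -0.43 (SE 0.11) and adjusted p from limma of 0.0246 and 0.0309. Thus 4 of the 10 passed in WT, 1 higher and 3 lower in polysomes, where 14.7% of 9574 genes did, 7.97% higher and 6.72% lower. The pools did not overlap for 9 of the 10 (all but *Cdc25c*), 5 higher and 4 lower in polysomes, beside 34.6% of genes, 16.7% higher and 17.9% lower.

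These WT calls rested on few libraries. *Ccnb1* did not pass without WT RNP replicate 2 or 3 (adjusted p = 0.0521 and 0.0518 from limma). *Cdc25a* did not pass without WT polysome replicate 1 or WT RNP replicate 2 or 3 (0.0502, 0.103 and 0.0861 from limma, adjusted p), and *Wee2* passed in the set without WT polysome replicate 3 but in no other set with 1 library left out (adjusted p from 0.0620 to 0.106 from limma). *Cdk1* passed without WT polysome replicate 1 (adjusted p = 0.0429 from limma), and *Pkmyt1* without WT RNP replicate 3 (adjusted p = 0.0337 from limma). *Cdc25b* passed in every such set. *Ccnb1*, *Cdc25a* and *Wee2* also lost the call without the intensity trend (adjusted p = 0.152, 0.0671 and 0.237 from limma). In the fit on all 12 libraries *Ccnb2*, *Cdk1*, *Pkmyt1* and *Wee1* passed as well (adjusted p from 0.0171 to 0.0277 from limma).

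In the KO, 6 of the 10 passed, 4 higher and 2 lower in polysomes, where 29.2% of 9851 genes did, 15.5% higher and 13.8% lower. Libraries of a group correlated less in WT, with Pearson's r of log2(FPKM + 1) at 0.883 to 0.885 in WT and 0.933 to 0.936 in KO polysomes. Between RNP libraries r was 0.907 to 0.932 in WT and 0.960 to 0.962 in the KO. The part of this spread in the 4 WT and 6 KO calls was not tested. *Cdc25b* (103.1 to 127.8 FPKM in polysomes, 31.3 to 41.9 in the RNP pool) had a log2 difference of 1.66 (SE 0.16, adjusted p = 9.64e-05 from limma). *Cdk1* was 3.70-fold higher in KO polysomes (27.6 to 35.4 FPKM) than in the RNP pool (7.47 to 9.25), with a log2 difference of 1.77 (SE 0.20, adjusted p = 0.000250 from limma). *Pkmyt1* and *Ccnb2* were higher in polysomes by 1.01 and 0.61 (adjusted p = 0.00713 and 0.0119 from limma), and *Ccnb1* and *Wee2* lower, with -0.60 and -0.46 (adjusted p = 0.0286 and 0.00646 from limma). The pools did not overlap for 7 of the 10, 4 higher and 3 lower in polysomes, beside 44.2% of genes, 22.5% higher and 21.7% lower. *Ccnb1* did not pass without KO RNP replicate 1, 2 or 3 (adjusted p = 0.0750, 0.0744 and 0.0699 from limma), and *Wee1*, lower in polysomes by 0.67 on the log2 scale with overlapping pools, passed without KO polysome replicate 2 (adjusted p = 0.0482 from limma). Without KO polysome replicate 1 the *Ccnb1* difference was -0.37 and passed (adjusted p = 0.0111 from limma). *Ccnb2* did not pass without KO RNP replicate 3 (adjusted p = 0.050025 from limma), and neither *Ccnb2* nor *Pkmyt1* passed in the fit on all 12 libraries (adjusted p = 0.0753 and 0.0569 from limma). Without the intensity trend *Ccnb1*, *Ccnb2* and *Wee2* lost the call (adjusted p = 0.111, 0.0517 and 0.0807 from limma), and *Ccnb1* also with no filter (adjusted p = 0.0927 from limma).

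**Figure D4:**
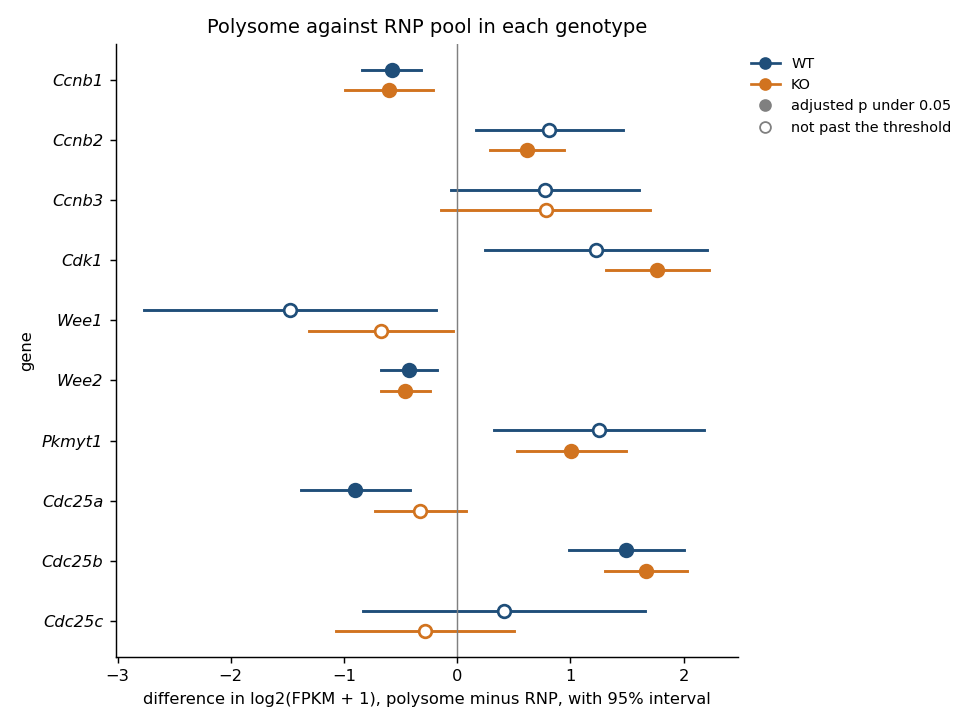
Difference in log2(FPKM + 1) between the polysome and the RNP pool for each of the 10 genes in WT and in KO oocytes (points, limma estimates; lines, 95% intervals; filled points, adjusted p under 0.05). *Cdc25b* lies at 1.49 in WT and 1.66 in the KO, *Ccnb1* at -0.58 and -0.60, and *Wee2* at -0.43 and -0.46.

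Whether the genotype changed the position in the gradient was tested by an interaction term (genotype by pool) in a model of all 12 libraries. None of the 10 genes passed in limma, where 0.237% of 10949 genes did, and 1 of the 10 had an unadjusted p under 0.05, beside 11.1% of all genes. That gene was *Cdc25a*, whose log2 difference between polysomes and the RNP pool was -0.90 in WT and -0.32 in the KO, closer to 0 in the KO by 0.57 (SE 0.26, unadjusted p = 0.0449, adjusted p = 0.434 from limma). For *Ccnb1* the interaction was -0.03 with a 95% interval of -0.51 to 0.46, and for *Wee2* it was -0.03 with an interval of -0.32 to 0.25. The intervals of *Wee1* (-0.55 to 2.16), *Cdk1* (-0.47 to 1.55) and *Cdc25c* (-2.06 to 0.67) were wide, and did not separate a genotype effect on position from none.

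Around these 10 genes stand other regulators of CDK1, followed here as 6 lists with 44 genes, all of them in the table. In polysomes 7 of 40 tested were higher and 0 lower in the KO, where 5.64% and 4.73% of all genes were, and 12 and 4 had an unadjusted p under 0.05 in limma, beside 26.3% of all genes in either direction. Of 41 tested in the RNP pool, 9 were higher and 1 lower, beside 10.5% and 10.2% of all genes. None of the 41 passed in the polysome-to-RNP ratio by limma, and 6 had an unadjusted p under 0.05, beside 11.1% of all genes, among them *Cks2* (-0.66, SE 0.21).

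Of the CDK1 partners and related kinases, *Cdk2*, whose product pairs with cyclins A and E, rose in both pools, by 0.90 in polysomes and 1.17 in the RNP pool on the log2 scale (adjusted p = 0.0418 and 0.00290 from limma). *Cks1b*, which encodes a small subunit bound to cyclin-dependent kinases, fell by 0.30 in the RNP pool (adjusted p = 0.0230 from limma), from 443.1 to 358.6 FPKM on average. Of the kinase that activates CDKs, *Ccnh* (cyclin H) was called higher in the RNP pool, by 1.19 (adjusted p = 0.0333 from limma), while 0 of its 3 genes passed in polysomes, also at an unadjusted p of 0.05. Among the kinases that act on CDC25 and WEE, *Plk1*, which promotes entry into M phase, rose in polysomes from 151.4 to 237.0 FPKM on average, a log2 difference of 0.64 (SE 0.12, adjusted p = 0.0145 from limma), and 0 of 8 passed in the RNP pool, where 3 had an unadjusted p under 0.05 in limma, beside 34.1% of all genes.

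The 14-3-3 genes, whose proteins hold phosphorylated CDC25 away from CDK1, held 4 of the 7 rises in polysomes (*Ywhab*, *Ywhae*, *Ywhag* and *Ywhaz* of 7 tested) and 3 of the 9 in the RNP pool (*Ywhab*, *Ywhae* and *Ywhah*). *Ywhae* had 517.1, 502.6 and 409.8 FPKM in WT and 743.0, 867.2 and 822.5 FPKM in KO polysomes, without overlap, a log2 difference of 0.77 (SE 0.12, adjusted p = 0.00791 from limma). In the phosphatase arm that opposes CDK1, *Ppp2r1a*, the scaffold subunit of PP2A, rose in both pools, by 0.81 and 0.62 (adjusted p = 0.0359 and 0.0480 from limma), and *Ppp2r1b* and *Ppp1ca* rose in the RNP pool, by 1.18 and 0.59 (adjusted p = 0.0388 and 0.0480 from limma). Of the genes that degrade or protect cyclin B, WEE and CDC25, *Fbxo5* (EMI1, which restrains the anaphase-promoting complex) rose in the RNP pool by 0.93 (SE 0.20, adjusted p = 0.0109 from limma), and 0 of 7 passed in polysomes, where 2 had an unadjusted p under 0.05. Oocyte markers were also called higher in the KO, 4 of 9 in polysomes and 6 of 9 in the RNP pool.

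Over the 12 libraries 9 of the 10 genes were compared in pattern (*Cdc25c* averaged under 5 FPKM and was left out), given as a description since all libraries share the groups, the gradients and the scaling to each library. Pearson's r of log2(FPKM + 1) was 0.90 between *Ccnb1* and *Cdc25a* and 0.83 between *Ccnb1* and *Wee2*. It was -0.84 between *Ccnb1* and *Cdc25b*, and -0.92 between *Wee2* and *Cdc25b*. *Wee1* followed none of the other 8 closely, with r between -0.45 and 0.30. Among 6680 genes, the one most like *Ccnb1* was *Pacrgl* (r = 0.95), that most like *Ccnb2* was *Homer2* (0.96), and that most like *Ccnb3* was *Csrnp2* (0.88). For *Cdk1* it was *Trim37* (r = 0.96), followed by the separase gene *Espl1* (0.96). For *Wee1* it was *Sh3bgrl* (r = 0.93), for *Wee2* *Cd160* (0.98) and for *Pkmyt1* *Ap2s1* (0.93). *Cdc25a* was matched most closely by *Zcchc8* (r = 0.97) and *Cdc25b* by *Mrps6* (0.99), a gene with 151.8 and 282.3 FPKM in WT and KO polysomes and 29.9 and 54.4 FPKM in the WT and KO RNP pools.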

How the data were processed

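Reads were trimmed by the authors and aligned to mm10 (TopHat2 2.0.13), and their deposited table gives 1 FPKM value per gene symbol and library, calculated with Cufflinks 2.2.1. FPKM is divided by transcript length and library depth, so it holds no counts and compares shares within a pool. Cuffnorm and Cuffdiff are also named among the authors' tools, and whether these scaled the libraries to each other was not checked. Summed FPKM ran from 440127 in WT RNP replicate 1 to 698228 in KO polysome replicate 2. Smart-seq2, used to amplify the cDNA, primes on poly(A) tails. Sources differ on the densest sucrose and on the library kit. The table also holds log2 changes, p-values and q-values of the authors' own comparisons, which were not used.

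Linear models on log2(FPKM + 1) were fitted to all genes that reached 1 FPKM in 3 or more libraries of a comparison, with limma 3.58.1 in R 4.3.3 (empirical Bayes with an intensity trend, Benjamini-Hochberg adjustment, threshold 0.05), after a check on simulated data. Each comparison used its own 6 libraries, and the polysome-to-RNP ratio all 12. The pseudocount makes the differences of weakly expressed genes smaller. Groups of 3 were also compared by an exact permutation test in scipy 1.17.1. Depth and fragments per gene were read from the step size of the lowest FPKM values, with 200 bases taken off each transcript length, and cover counting error only. Pattern likeness used genes that averaged 5 FPKM or more. The 3′UTRs came from the longest coding transcript of each gene in GENCODE M21. Proteins were not aligned, because no protein table was used here. Tables were handled with Python 3.11.15, pandas 2.3.3 and numpy 2.4.6, and figures drawn with matplotlib 3.10.9.

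The genes, the lists around them and the tests were chosen with earlier results of these data known. All 10 genes are named, and from each list those called between the genotypes with the largest change. Alternatives were pseudocounts of 0.1 and 5, quantile normalization, rescaling to a common median, no filter on low values, a filter at 5 FPKM, no intensity trend, the replicate number as a block, a fit on all 12 libraries, and each library left out in turn.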

Additional observations from a re-analysis of the deposited data

How the results depend on the processing

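The direction of the called differences of *Ccnb1*, *Ccnb2*, *Wee1*, *Cdc25a* and *Cdc25b* between KO and WT was kept under every alternative, while the call itself was less stable in polysomes than in the RNP pool. In polysomes, 2 of the 10 genes passed, but 1 passed with a pseudocount of 0.1 or a filter at 5 FPKM, 0 passed without a filter (fewer passing over more genes tested), without the intensity trend or with the replicate block, and 0 to 2 with each library left out. Over all genes the polysome count was 989, and 545 without a filter, 508 without the trend, 1843 with the spread of all 12 libraries, and 383 to 790 with each library left out. In the RNP pool the members' count stayed between 3 and 5, and that of all genes was 1255 to 1911 with each library left out, against 2057. For the polysome-to-RNP ratio 0 of the 10 passed under every alternative, and over all genes 26 passed, 6 without the trend, 11 with the replicate block and 0 to 46 with each library left out. For the WT pools 4 members passed, 1 without the trend, 8 with the spread of all 12 libraries and 1 to 4 with each library left out. Over all genes 1406 passed there, 728 without the trend, 2302 with all 12 libraries and 780 to 1212 with each library left out. For the KO pools 6 members passed, and 3 without the trend. The cause of these shifts was not tested.

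Of 794 values of single genes under an alternative, 712 kept their direction and their side of the threshold. A further 43 lost the call, 15 gained it and 24 changed sign. The 108 family shares with 1 library left out stayed within 1 SD. Groups of this size always do so by arithmetic, so this does not show how stable the shares are. All sign changes were of differences that had not passed. The furthest of them from 0 was that of *Pkmyt1* in the polysome-to-RNP ratio, at -0.24. With each library left out, *Cdc25c* in polysomes ranged from -0.080 to 0.44 and *Pkmyt1* from -0.35 to 0.033, and *Pkmyt1* in the RNP pool from -0.33 to 0.48. The ratio then ranged from -0.18 to 0.20 for *Ccnb1*, -0.38 to 0.077 for *Ccnb2*, -0.37 to 0.34 for *Ccnb3*, -0.64 to 0.17 for *Pkmyt1* and -0.083 to 0.0073 for *Wee2*. After quantile normalization it was 0.076 for *Ccnb1*, 0.021 for *Wee2* and -0.0036 for *Ccnb3*, and for *Ccnb3* it was -0.051 with a pseudocount of 5 and -0.034 after rescaling to the same median.

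Same-numbered libraries did not deviate together (correlations of -0.021 to 0.026 over 10949 genes), so the numbers were not taken as pairs. With the replicate block, the calls of *Cdc25b* (adjusted p = 0.0703 from limma) and *Wee1* (0.0615) in polysomes and of *Wee2* between the WT pools (0.0676) were lost. The fewest estimated fragments were those of *Cdc25c* (9 to 54 per library) and of *Wee1* in WT polysomes (0, 20 and 67 in replicates 1, 2 and 3). What lies behind the spread of these values was not tested.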

Other observations

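Summed over the families, the balance of the inhibitory kinases to the activating phosphatases differed between the genotypes in polysomes. The summed FPKM of *Wee1*, *Wee2* and *Pkmyt1* per summed FPKM of *Cdc25a*, *Cdc25b* and *Cdc25c* ran from 2.57 to 3.52 in WT and from 1.80 to 1.99 in KO polysomes, without overlap. In the RNP pool it ran from 4.16 to 4.97 in WT and from 4.78 to 5.23 in the KO, with overlap. Cyclin B per *Cdk1* ran from 18.1 to 40.6 in WT and from 8.11 to 12.9 in KO polysomes, and from 64.4 to 139.5 and from 45.2 to 56.4 in the RNP pools. These ratios were chosen with the levels known and were not tested, and they compare mRNA and not the amount or activity of the proteins.

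The CKS genes, whose products bind CDK1, lay in opposite places in the gradient. *Cks2* averaged 432.6 FPKM in WT polysomes and 143.2 FPKM in the WT RNP pool, a log2 difference of 1.58 (SE 0.14, adjusted p = 0.000214 from limma), and *Cks1b* 266.2 and 443.1 FPKM, a log2 difference of -0.74 (SE 0.12, adjusted p = 0.00450 from limma). In the KO the same comparison gave 0.92 (SE 0.14, adjusted p = 0.00143 from limma) for *Cks2* and -0.92 (SE 0.11, adjusted p = 0.000257 from limma) for *Cks1b*. The change of *Cks2* between the genotypes did not pass (interaction -0.66, SE 0.21, unadjusted p = 0.00692, adjusted p = 0.237 from limma). The genes were named after their values were seen.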
